A study of Mus musculus with 9 samples.

Results

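The bone morphogenetic protein (BMP) pathway and its Id target genes were examined in mouse embryonic stem cells labelled β-catenin-/- and exposed for 30 min to inhibitors of the kinase GSK3. The genes were chosen by symbol, with earlier results of these data known. They were the Id genes Id1, Id2 and Id3, the Smads Smad1, Smad5 and Smad6, the ligand Bmp4 and the receptor Bmpr1a. These are 8 of the 52264 rows of the count table, and all 8 were among the 15366 genes that passed the filter on low counts.

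BMP ligands bind a pair of receptor kinases at the cell surface, of which Bmpr1a is a type I receptor. The activated receptor phosphorylates Smad1 and Smad5, which join the common Smad4, enter the nucleus and switch on target genes. Id genes are classical targets: their proteins bind E proteins and keep basic helix-loop-helix factors off DNA. Smad6 is an inhibitory Smad that is itself induced by the pathway and damps it. In mouse embryonic stem cells, BMP4 acting through Id proteins is known for supporting self-renewal together with LIF, and GSK3 is known to phosphorylate the linker of Smad1 and mark it for degradation.

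The 9 RNA sequencing libraries were 3 untreated controls, 3 treated with BRD0705, an inhibitor selective for GSK3α, and 3 treated with CHIR (CHIR-99021), which inhibits GSK3α and GSK3β. All groups carried the same genotype, and all were grown on feeder-treated dishes, expanded with 3 µM CHIR, 1 µM PD03 (a MEK inhibitor) and 40 ng/ml LIF, and moved to N2B27 medium overnight before the 30 min treatment. The control cells had therefore also seen CHIR during expansion. The labels give neither the dose of the 30 min treatment nor a line or clone name, and they do not say whether the libraries came from separate cultures, so p-values measure only the spread between these libraries.

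Total counts ranged from 17359422 to 20773337 per library, and replicates differed from each other beyond counting noise (chi-square per degree of freedom 3.37 to 7.90 over 9 pairs within groups). Ctnnb1, which encodes β-catenin, was read in every library, at TMM-scaled CPM values (the count of a gene relative to the library's total) that averaged 343 ± 10.7 in control, 329 ± 25.8 under BRD0705 and 361 ± 17.3 under CHIR (SD, n = 3 each), so the counts alone do not check the genotype label. Stem cell markers were abundant: 10 of 10 were tested, with summed CPM of 4335 to 4405 in control, 4196 to 4381 under BRD0705 and 4434 to 4577 under CHIR. All 12 fibroblast markers of the feeder layer were also read, none at 0, and their summed CPM was 2481 to 2971 in control, 3127 to 3192 under BRD0705 and 2776 to 3324 under CHIR. Each of these 12 had a higher mean with either inhibitor than in control, and 1 of 12, Col1a1, passed the threshold in each of these contrasts by edgeR. An unadjusted p under 0.05 by edgeR was found for 6 of 12 with BRD0705 and 5 of 12 with CHIR. The shares over all tested genes were 15.9% and 20.5%. DESeq2 called 3 of the 11 markers with an adjusted p under BRD0705 and 1 of 12 under CHIR. Over all genes DESeq2 called 484 under BRD0705 and 863 under CHIR, where edgeR called 188 and 968. In RNA from a mixed dish a change in the number of cells of a type and a change in RNA per cell cannot be told apart. Nor can the reads of a gene be assigned to stem cells or to feeder cells.

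The sequences upstream of the annotated starts are shown for the 2 members that passed a test, Id2 and Smad6, and for Id3 as an Id gene that did not. They come from RefSeq on GRCm38.p6, the assembly also called mm10, for which an upstream sequence was available for 7 of the 8 genes. Id1 had none and was not searched for motifs. They are written 5′ to 3′ on the strand of the gene, and each run ends before the first annotated transcript start. Capitals mark the letters of 2 Smad motifs on either strand, the GC-rich motif GGCGCC and the Smad-binding core CAGAC, which reads as GTCTG when it lies on the other strand.
Id2 (chr12:25096093-25096342, minus strand): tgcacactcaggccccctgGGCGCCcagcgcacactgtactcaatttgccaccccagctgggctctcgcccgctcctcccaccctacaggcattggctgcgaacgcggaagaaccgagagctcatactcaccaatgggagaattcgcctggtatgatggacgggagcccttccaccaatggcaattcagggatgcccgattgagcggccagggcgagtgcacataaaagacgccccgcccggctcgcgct
Id3 (chr4:136143572-136143821, plus strand): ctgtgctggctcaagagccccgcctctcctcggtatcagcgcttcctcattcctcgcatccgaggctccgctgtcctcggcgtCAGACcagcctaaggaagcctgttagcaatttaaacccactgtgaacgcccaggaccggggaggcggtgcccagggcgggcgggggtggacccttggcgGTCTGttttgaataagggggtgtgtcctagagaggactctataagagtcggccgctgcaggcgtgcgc
Smad6 (chr9:64022130-64022309, minus strand): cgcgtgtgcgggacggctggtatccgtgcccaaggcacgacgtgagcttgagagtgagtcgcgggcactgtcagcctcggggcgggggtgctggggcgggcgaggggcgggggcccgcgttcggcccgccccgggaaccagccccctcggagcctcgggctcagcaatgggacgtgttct

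In the 250 bases before the RefSeq start, Id2 held 1 GGCGCC and no CAGAC, Id3 held 2 CAGAC and no GGCGCC, and Smad6 held neither. Over all 32851 RefSeq windows of that length, 9.59% held GGCGCC and 42.2% held CAGAC on either strand. The windows of Smad1 and Bmp4 held neither motif, and that of Bmpr1a held 1 GGCGCC. Smad5 had 3 windows, of which 1 held GGCGCC, 1 held CAGAC and 1 held neither. None of the 3 windows printed held CTTTGA, the core of the TCF motif, which 13.8% of all windows held. These matches describe letters in a short window and not binding.

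The genes lie on different chromosomes, except Bmp4 and Bmpr1a, which lie apart from each other on chromosome 14. On GRCm38.p6, Id2 lies on chromosome 12 from 25093799 to 25096092 on the minus strand, and its canonical transcript in GENCODE vM39 has 3 exons and 2463 bases. That transcript is longer than the RefSeq span, so these annotations of Id2 differ. The CPM per kb of Id2 given below rests on the GENCODE length. Smad6 lies on chromosome 9 from 63953076 to 64022085 on the minus strand, with 4 exons and 3058 bases. Id1 lies on chromosome 2 from 152736251 to 152737410 and Id3 on chromosome 4 from 136143822 to 136145392, both on the plus strand. The canonical transcript of Id1 has 2 exons and 1154 bases, nearly its whole RefSeq span. That leaves little room for an intron, so the annotations of Id1 may differ too. Its CPM per kb also rests on the GENCODE length. Whether counting used strand is not stated, and genes opposite a member could share its reads. Of such genes that are also in the count table, Gm15222, opposite Bmp4, was the highest at a mean of 13.2 counts per library, against 651 counts for Bmp4 itself.

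All 8 genes were read in every library, and the ligand, the receptor and Id1 stood above the inhibitory Smad. The libraries also held RNA of feeder fibroblasts, so these are levels of the mixed dish and not of the stem cells alone. Levels can be compared between genes only per length of transcript, and on that scale (CPM per kb, mean ± SD over 9 libraries) Id1 was the highest at 19.1 ± 2.30. It was followed by Bmpr1a at 12.7 ± 0.795, Bmp4 at 12 ± 0.702, Smad1 at 8.11 ± 1.02, Id3 at 7.64 ± 0.804, Smad5 at 4.73 ± 0.410, Id2 at 3.19 ± 0.709 and Smad6 at 1.66 ± 0.395. Bmpr1a and Bmp4 did not differ in this order beyond their spread, nor did Smad1 and Id3. The lowest Id1 library, at 15.9 CPM per kb, was above the highest Bmpr1a library, at 13.7 CPM per kb. Smad5 and Id2 overlapped, with a lowest Smad5 library of 4.16 CPM per kb and a highest Id2 library of 4.48 CPM per kb. Smad6 stayed below Id2, its highest library at 2.22 CPM per kb and the lowest of Id2 at 2.41 CPM per kb. By mean CPM, the members ranged from percentile 30.9 of the tested genes for Smad6 to percentile 82.0 for Bmpr1a.

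**Figure D1:**
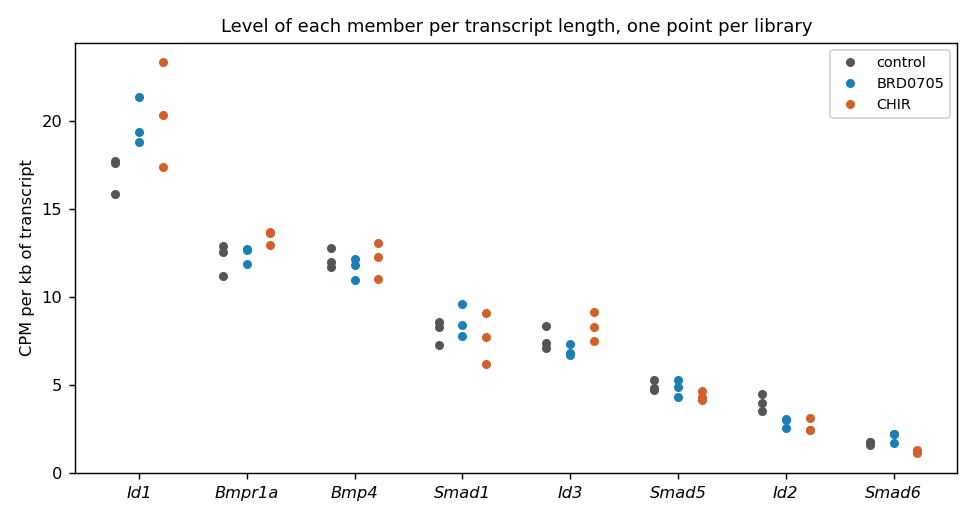
Level of each of the 8 genes per kb of its canonical transcript (y axis, CPM per kb), 1 point per library, coloured by group. Id1 lies above all other members in every library, and Smad6 lies lowest, with its CHIR libraries below its control libraries.

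The Id genes did not move together. Id2 was the one member that fell against control, under CHIR, to 66.6% of its control level, and its values with BRD0705 were also low but did not pass the test. Id1 had higher means with both inhibitors and Id3 a mean below control with BRD0705 and above it with CHIR, and none of these differences passed.

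Id2, which encodes an inhibitor of E proteins, stood at 11, 9.83 and 8.72 CPM in control replicates 1 to 3. It stood at 6.31, 7.57 and 7.46 CPM with BRD0705 and at 6.03, 5.95 and 7.76 CPM with CHIR. All 6 inhibitor libraries were below all 3 control libraries, and the libraries of the inhibitors overlapped each other. Mean CPM was 9.87 ± 1.16 in control, 7.11 ± 0.695 under BRD0705 and 6.58 ± 1.03 under CHIR (SD, n = 3 each). Against control, Id2 fell by 0.59 on the log2 scale with CHIR (SE 0.13; adjusted p 0.0119 by the quasi-likelihood test of edgeR, with the Benjamini-Hochberg method applied over all tested genes). With BRD0705 the log2 fold change of -0.47 ± 0.13 did not pass (SE; edgeR adjusted p 0.0794), except with no low-count filter (0.0190). The inhibitors themselves differed by 0.11 in log2 (95% interval -0.18 to 0.40; edgeR adjusted p 0.685), which does not show that they act alike on Id2.

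Id2 was read at 108 to 224 counts per library, where counting alone gives a relative SD of 8.07% at the mean count, and the observed relative SDs were 11.8% in control, 9.77% with BRD0705 and 15.6% with CHIR. The CHIR call passed in 18 of 22 alternatives and was lost without control replicate 1 (edgeR adjusted p 0.0625), without CHIR replicate 1 (0.0583) and without CHIR replicate 2 (0.0722). With the feeder score added to the model, the log2 fold change was -0.48 and the edgeR adjusted p 0.168, over a range of 0.000604 to 0.168 in all alternatives. With BRD0705 the log2 fold change in that fit was -0.34 (edgeR adjusted p 0.626), against -0.47 without the score. Over the 9 libraries the Pearson r with the feeder score was -0.743 for Id2 and 0.783 for Id1. The other members lay between -0.448 and 0.0354. Whether feeder content accounts for the Id2 values was not tested.

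Id1, another Id gene and a direct Smad target, stood at 20.5, 20.3 and 18.3 CPM in the control libraries. It stood at 21.7, 24.7 and 22.4 CPM with BRD0705 and at 27.0, 23.5 and 20.1 CPM with CHIR. The BRD0705 libraries were all above control, and CHIR replicate 3 lay within the control range. The log2 fold change was 0.22 ± 0.09 with BRD0705 (SE; edgeR adjusted p 0.269) and 0.26 ± 0.09 with CHIR (SE; edgeR adjusted p 0.118). The CHIR difference passed without CHIR replicate 3, at a log2 fold change of 0.37 (edgeR adjusted p 0.0251), and with no low-count filter (0.0417), over a range of 0.0251 to 0.724 in all alternatives. The 12 feeder markers moved the same way as Id1, and with their score as a covariate the log2 fold change of Id1 was 0.05 with BRD0705 and 0.11 with CHIR. The score did not overlap between BRD0705 and control, so that fit cannot tell feeder content apart from treatment. Whether feeder content accounts for the Id1 values was not tested.

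Id3 stood at 10.6, 9.11 and 9.46 CPM in control. It stood at 8.72, 8.59 and 9.40 CPM with BRD0705 and at 11.7, 9.58 and 10.6 CPM with CHIR. The BRD0705 libraries lay wholly below the CHIR libraries, while each inhibitor overlapped control. Between the inhibitors the log2 difference was -0.26 ± 0.11 (SE, BRD0705 minus CHIR; edgeR adjusted p 0.167), which did not pass. Id4, the fourth Id gene, had mean CPM of 6.94 ± 0.687 in control, 6.12 ± 1.20 under BRD0705 and 6.89 ± 0.350 under CHIR (SD, n = 3 each) and did not pass either.

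**Figure D2:**
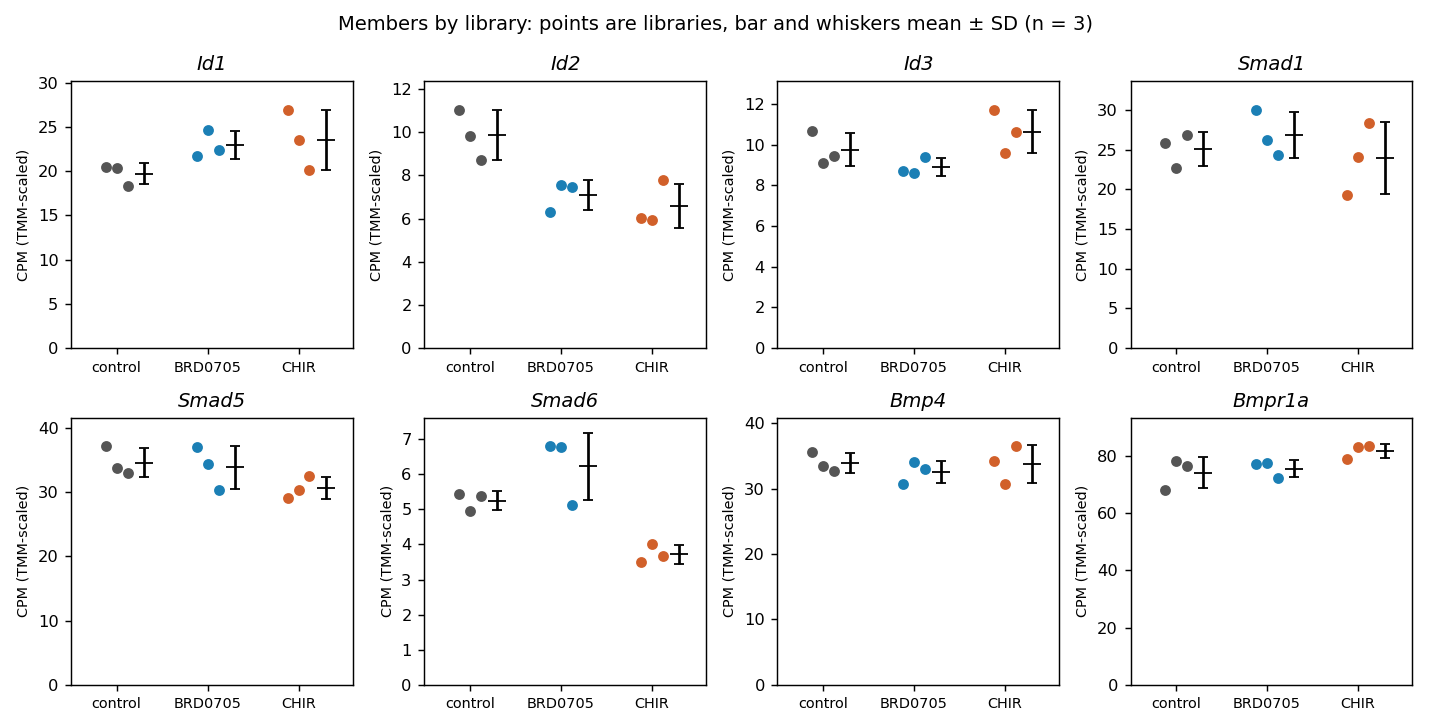
CPM of each of the 8 genes by library (points), with the mean and SD of each group (bar and whiskers, n = 3), on axes that start at 0. All 6 inhibitor libraries of Id2 lie below its 3 control libraries, and the 3 CHIR libraries of Smad6 lie below all other libraries.

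Among the Smads, the inhibitory Smad6 differed between the inhibitors, and no difference passed for the signal-carrying Smad1 and Smad5. Smad6 with BRD0705 stood at 167% of its level with CHIR, and this was the one difference between the inhibitors that passed among the 8 genes.

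Smad6 stood at 5.42, 4.94 and 5.37 CPM in control. It stood at 6.79, 6.77 and 5.13 CPM with BRD0705 and at 3.49, 4.02 and 3.66 CPM with CHIR. The CHIR libraries were below every control and BRD0705 library, and BRD0705 replicate 3 lay within the control range while the other two were above it. Mean CPM was 5.24 ± 0.265 in control, 6.23 ± 0.954 under BRD0705 and 3.72 ± 0.270 under CHIR (SD, n = 3 each). BRD0705 exceeded CHIR by 0.74 ± 0.15 in log2 (SE; edgeR adjusted p 0.00513), and this passed in 22 of 22 alternatives, with adjusted p from 0.000390 to 0.0336. With the feeder score in the model the difference was 0.73 (edgeR adjusted p 0.00849). Against control, neither inhibitor passed: the log2 fold change was -0.49 ± 0.15 with CHIR (SE; edgeR adjusted p 0.0592) and 0.24 ± 0.14 with BRD0705 (SE; edgeR adjusted p 0.429). The CHIR value lay close to the threshold and passed in 4 of 22 alternatives: without BRD0705 replicate 3 (edgeR adjusted p 0.0378), with library size only (0.0466), with the GC and length correction (0.0480) and on the normalized table as log2(value + 0.1) by limma (0.0489), over a range of 0.0378 to 0.187 in all alternatives. Smad6 had the fewest reads of the members, 67 to 127 counts per library.

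Smad1, which carries the BMP signal to the nucleus, stood at 25.9, 22.7 and 26.8 CPM in control. It stood at 30.1, 26.3 and 24.4 CPM with BRD0705 and at 19.3, 24.1 and 28.4 CPM with CHIR. The CHIR libraries spanned the whole range of the controls and more, and no contrast passed, with 95% intervals of the log2 fold change of -0.13 to 0.33 for BRD0705 and -0.31 to 0.16 for CHIR. Smad5, its close relative with the same role, stood at 37.1, 33.7 and 33.0 CPM in control. It stood at 37.0, 34.3 and 30.3 CPM with BRD0705 and at 29.1, 30.3 and 32.5 CPM with CHIR. All CHIR libraries of Smad5 lay below control, by a margin smaller than the spread within either group, and the log2 fold change of -0.18 ± 0.08 did not pass (SE; edgeR adjusted p 0.202).

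The ligand and the receptor differed little between groups. Bmp4 stood at 35.6, 33.5 and 32.6 CPM in control. It stood at 30.7, 34.0 and 33.1 CPM with BRD0705 and at 34.3, 30.7 and 36.5 CPM with CHIR. The 3 groups overlapped, and the 95% intervals of the log2 fold change were -0.21 to 0.09 for BRD0705 and -0.15 to 0.15 for CHIR. Bmpr1a, the receptor kinase and the most deeply read member at 1361 to 1616 counts per library, stood at 68.0, 78.3 and 76.3 CPM in control. It stood at 77.0, 77.4 and 72.2 CPM with BRD0705 and at 78.9, 83.0 and 83.4 CPM with CHIR. All CHIR libraries were above the other 6, and the log2 fold change of 0.14 ± 0.06 against control did not pass (SE; edgeR adjusted p 0.208).

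**Figure D3:**
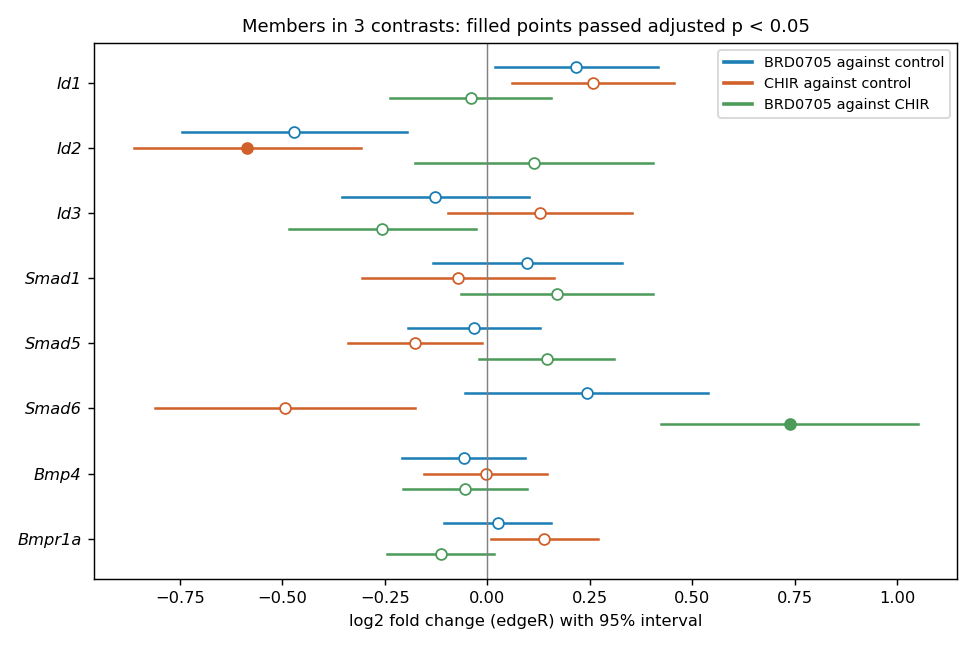
Log2 fold change of each of the 8 genes (x axis, edgeR, with 95% intervals as lines) in 3 contrasts, with filled points where the adjusted p was under 0.05. The filled points are Id2 in CHIR against control, at -0.59, and Smad6 in BRD0705 against CHIR, at 0.74.

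Counted over the list, 0 of 8 members passed in BRD0705 against control by edgeR, where 1.22% of all tested genes passed (0.69% higher and 0.534% lower). Limma voom also gave 0 of 8, and DESeq2 gave 0 of the 5 members for which it returned an adjusted p, which leaves out Id2, Id3 and Smad6. An unadjusted p under 0.05 by edgeR was found for 2 of 8 members, Id1 and Id2, and for 15.9% of all tested genes. In CHIR against control 1 of 8 passed, lower, against 6.3% of all tested genes (2.52% higher and 3.78% lower), and 5 of 8 had an unadjusted p under 0.05, against 20.5%. In BRD0705 against CHIR 1 of 8 passed, higher, against 7.77% of all tested genes (4.8% higher and 2.97% lower), and 2 of 8 had an unadjusted p under 0.05, against 22.5%. With 8 genes, a share of 1 in 8 at the adjusted threshold is not far from this background. The 5 of 8 at an unadjusted p under 0.05 with CHIR lie above 20.5%, with Id1 and Bmpr1a higher and Id2, Smad5 and Smad6 lower. The list as a whole was not tested. It was chosen with earlier results of these data known, so these shares are not an independent comparison with the background. The groups did not overlap in CPM for 2 of 8 members in BRD0705 against control, 4 of 8 in CHIR against control and 3 of 8 between the inhibitors, against 20.2%, 25.1% and 26.7% of all tested genes. The median log2 fold change of the members was -0.0033 with BRD0705 and -0.038 with CHIR, beside -0.0038 and -0.0091 over all tested genes. Both contrasts share the same control libraries.

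The rest of the pathway was read from lists of BMP ligands, receptors, Smads, antagonists and coreceptors, Smad degradation and dephosphorylation genes, target genes, E proteins, and the neighbouring Nodal and activin branch, which signals through Smad2 and Smad3. Apart from the 8 members, 69 genes of these lists were in the table and 58 were tested. Of these 58, 1 rose and none fell with BRD0705, and 2 rose and 2 fell with CHIR. Between the inhibitors 3 were higher with BRD0705 and 2 higher with CHIR. In either direction 1, 4 and 5 of 58 passed, against 1.22%, 6.3% and 7.77% of all tested genes. These counts lie near the background, and these lists too were chosen with earlier results known. The gene that rose with BRD0705 was Lefty1, and those of the CHIR contrast were Bmp8a and Nodal, which fell, and Grem1 and Tgfbr1, which rose.

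**Figure D4:**
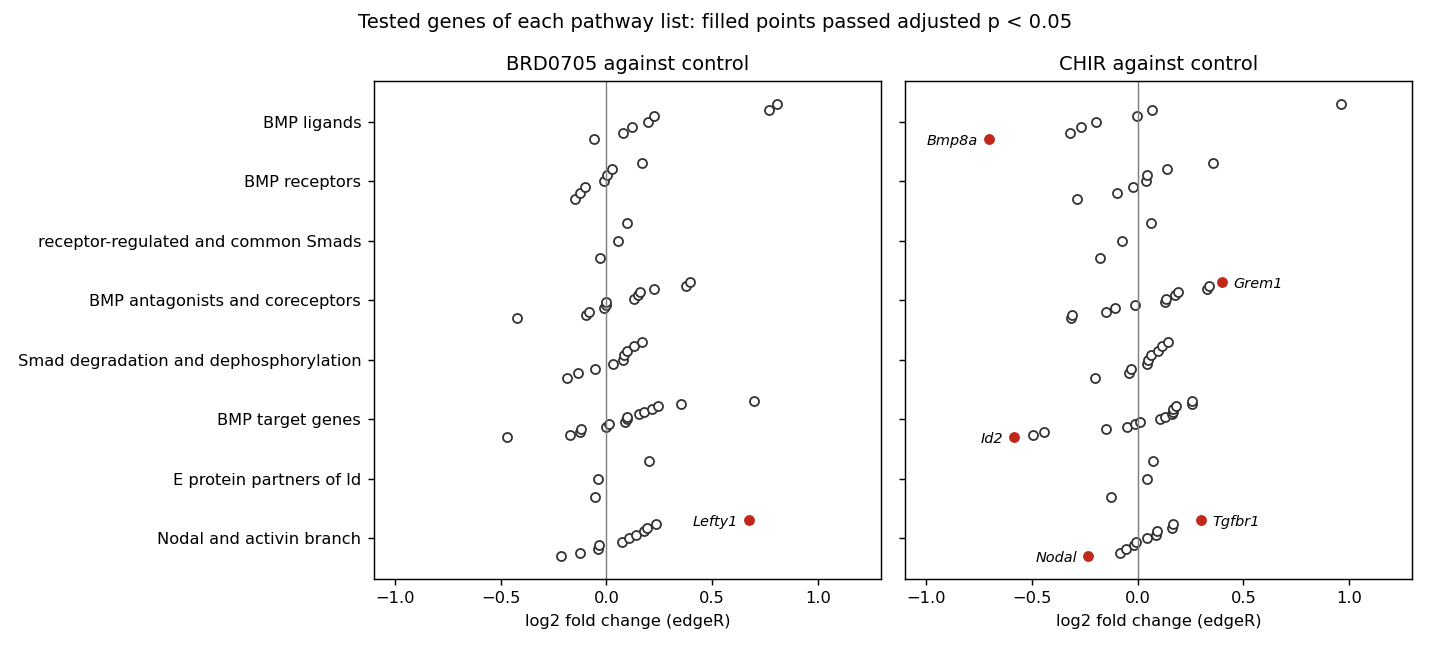
Log2 fold change against control (x axis, edgeR) of the tested genes of each pathway list, members included, for BRD0705 (left) and CHIR (right). Filled, named points passed an adjusted p of 0.05: Lefty1 with BRD0705, and Bmp8a, Grem1, Id2, Nodal and Tgfbr1 with CHIR.

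Bmp8a was the ligand that fell with CHIR. It stood at 4.63, 4.70 and 5.72 CPM in control. It stood at 5.46, 5.86 and 5.08 CPM with BRD0705 and at 3.04, 3.14 and 3.06 CPM with CHIR. The CHIR libraries were close together and below all 6 others, as they were for Smad6. Bmp8a fell by 0.70 in log2 with CHIR (SE 0.15; edgeR adjusted p 0.00888) and was higher with BRD0705 than with CHIR by 0.82 ± 0.15 (SE; edgeR adjusted p 0.00262). The fall against control was lost without control replicate 3 (edgeR adjusted p 0.0562) and with the feeder score as a covariate (0.101), where the log2 fold change was -0.69, over a range of 0.00262 to 0.101 in all alternatives, while the difference between the inhibitors passed in 22 of 22. Of the other ligands, Bmp7 had mean CPM of 4.92 ± 0.0545 in control, 5.75 ± 0.731 under BRD0705 and 4.08 ± 0.684 under CHIR (SD, n = 3 each), and no contrast passed. Its CHIR libraries were below all others, the highest at 4.865 CPM and the lowest control library at 4.878 CPM. The difference of 0.49 ± 0.15 in log2 between BRD0705 and CHIR lay close to the threshold (SE; edgeR adjusted p 0.0549). Of 13 ligands on the list, Bmp4 included, 7 were tested. An unadjusted p under 0.05 by edgeR was found for 0 with BRD0705, 1 with CHIR and 2 between the inhibitors.

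Of the receptors, Bmpr1a included, 7 of 7 were tested and 0 passed in any of the 3 contrasts by edgeR or limma voom. DESeq2 called 0 of the 3, 6 and 6 receptors for which it returned an adjusted p in BRD0705 against control, CHIR against control and BRD0705 against CHIR. At an unadjusted p under 0.05 there was 1 receptor in CHIR against control, Bmpr1a, and 0 in the others. The most abundant type II receptor, Bmpr2, averaged 32.3 ± 4.26 CPM in control, 32.1 ± 2.90 under BRD0705 and 31.8 ± 2.14 under CHIR (SD, n = 3 each). The common Smad4 was at 97.9 ± 1.62, 102 ± 4.35 and 102 ± 2.46 CPM in the same order (SD, n = 3 each), and Smad9 did not reach the filter.

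Of the antagonists, Grem1, which encodes the secreted BMP antagonist gremlin, rose with CHIR. It stood at 19.0, 16.8 and 17.5 CPM in control. It stood at 18.9, 21.6 and 18.7 CPM with BRD0705 and at 25.4, 22.4 and 22.4 CPM with CHIR. The CHIR libraries were above all others. With CHIR, Grem1 rose by 0.40 ± 0.08 in log2 (SE; edgeR adjusted p 0.00739). The feeder markers also had higher means with CHIR, and with the feeder score as a covariate the log2 fold change was 0.33 and the edgeR adjusted p 0.144, the highest of a range of 0.000263 to 0.144. Twsg1, which binds BMP outside the cell, was lower with BRD0705 than with CHIR, with mean CPM of 63.2 ± 1.41 against 73.4 ± 1.45 (SD, n = 3 each; edgeR adjusted p 0.0361), and passed in 11 of 22 alternatives. It was lost without control replicate 3 or without any 1 of the 6 inhibitor libraries, at edgeR adjusted p from 0.0533 to 0.116. It was also lost with library size only (edgeR adjusted p 0.101), with the feeder covariate (0.0528, at a log2 difference of -0.21 against -0.22 without it) and with the GC and length correction (0.0572, and 0.0650 with the replicate block). Of 12 tested antagonists and coreceptors, 3 with BRD0705, 5 with CHIR and 2 between the inhibitors had an unadjusted p under 0.05 by edgeR. Over all tested genes the shares were 15.9%, 20.5% and 22.5%.

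Of the 15 tested target genes, none outside the 8 members passed by edgeR, while DESeq2 and limma voom each called 1 more in CHIR against control, Tbx3. Members included, 3 of 15 with BRD0705, 4 with CHIR and 3 between the inhibitors had an unadjusted p under 0.05 by edgeR. Over all tested genes the shares were 15.9%, 20.5% and 22.5%. Smad7, the second inhibitory Smad and far more abundant than Smad6, averaged 95.6 ± 5.15 CPM in control, 102 ± 3.70 under BRD0705 and 96.4 ± 6.61 under CHIR (SD, n = 3 each). Its libraries overlapped in each contrast, unlike those of Smad6 between the inhibitors. Tbx3, a transcription factor gene of the naive state, was at 189 ± 5.56, 202 ± 13.0 and 214 ± 0.966 CPM in the same order (SD, n = 3 each), and its CHIR difference had an adjusted p of 0.0507 by edgeR, 0.0107 by DESeq2 and 0.0476 by limma voom. Of 3 tested E protein genes, whose products Id proteins bind, 0 passed by edgeR or limma voom, while DESeq2 called 1, Tcf3, in BRD0705 against control, and 1, 0 and 1 had an unadjusted p under 0.05 in the 3 contrasts. Tcf3 was the most abundant of them, with mean CPM of 286 ± 12.8 in control, 329 ± 10.3 under BRD0705 and 301 ± 4.75 under CHIR (SD, n = 3 each; edgeR adjusted p 0.0570 for BRD0705 against control).

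Of 9 tested genes for Smad degradation and dephosphorylation, 0 passed in any contrast by edgeR or limma voom, nor any of the 7 to 9 with an adjusted p by DESeq2, and 1 had an unadjusted p under 0.05, in BRD0705 against control. The phosphatase gene Ctdsp2 had mean CPM of 164 ± 3.76 in control, 167 ± 3.32 under BRD0705 and 159 ± 0.664 under CHIR (SD, n = 3 each). Stub1, which encodes a ubiquitin ligase, had mean CPM of 85.7 ± 6.29, 82.4 ± 3.82 and 89.4 ± 3.16 in the same order.

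In the Nodal and activin branch, 11 of 11 genes were tested by edgeR, where 1 rose with BRD0705, and 1 rose and 1 fell with CHIR. Over all tested genes 1.22% and 6.3% passed in these contrasts. DESeq2 called 3 of the branch in each, adding Lefty2 (adjusted p 0.0113) and Ski (0.0137) with BRD0705 and Tdgf1 (0.0258) with CHIR. Over all genes DESeq2 called 484 with BRD0705 and 863 with CHIR, where edgeR called 188 and 968. An unadjusted p under 0.05 by edgeR was found for 5 of 11 with BRD0705, 3 with CHIR and 5 between the inhibitors. Over all tested genes the shares were 15.9%, 20.5% and 22.5%. Lefty1, a feedback inhibitor of Nodal, stood at 28.8, 24.8 and 27.2 CPM in control. It stood at 40.0, 40.0 and 48.7 CPM with BRD0705 and at 33.1, 27.3 and 25.1 CPM with CHIR. The BRD0705 libraries were above all 6 others. Lefty1 rose with BRD0705 by 0.67 ± 0.10 in log2 (SE; edgeR adjusted p 0.00370) and was higher than with CHIR by 0.59 ± 0.10 (SE; edgeR adjusted p 0.00102). With BRD0705 the feeder markers also had higher means. Against control, Lefty1 was lost with the feeder score as a covariate (edgeR adjusted p 0.246, at a log2 fold change of 0.49). In that fit 0 of 15366 tested genes passed for BRD0705, whose feeder scores did not overlap control. The loss therefore cannot tell feeder content apart from treatment. In the direct contrast, Lefty1 passed in 22 of 22 alternatives.

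Nodal itself, the ligand, stood at 65.4, 58.6 and 61.4 CPM in control. It stood at 50.3, 52.8 and 56.4 CPM with BRD0705 and at 53.8, 53.9 and 49.9 CPM with CHIR. All 6 inhibitor libraries were below control, as for Id2. Nodal fell with CHIR by 0.23 (SE 0.06; edgeR adjusted p 0.0344), while the log2 fold change of -0.22 ± 0.06 with BRD0705 did not pass (SE; edgeR adjusted p 0.0978). Without any 1 of the control or CHIR libraries, or without BRD0705 replicate 2, the CHIR call was lost, at edgeR adjusted p from 0.0501 to 0.144. The receptor gene Tgfbr1 rose with CHIR, from 20.7 ± 1.64 to 25.5 ± 2.45 CPM (SD, n = 3 each; edgeR adjusted p 0.0328). It was lost without control replicates 1 or 3 or CHIR replicates 1 or 2, at edgeR adjusted p from 0.0730 to 0.137, with library size only (0.0692) and with the feeder covariate (0.244, at a log2 fold change of 0.27 against 0.30 without it).

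Between the inhibitors, Ski, a Smad corepressor gene, was higher with BRD0705, with mean CPM of 155 ± 4.94 against 134 ± 6.26 (SD, n = 3 each; edgeR adjusted p 0.0278). Tdgf1, the gene of the Nodal coreceptor Cripto, was lower with BRD0705, with mean CPM of 403 ± 32.2 against 465 ± 8.58 (SD, n = 3 each; edgeR adjusted p 0.0321). With a correction for GC content and transcript length, Ski had an adjusted p of 0.279 by edgeR (0.286 with the replicate block). Ski was also lost without BRD0705 replicates 1 or 2 or CHIR replicates 1 or 3 (edgeR adjusted p 0.0533 to 0.138), and Tdgf1 without BRD0705 replicates 1 or 3 or any 1 CHIR replicate (0.0617 to 0.114), with library size only (0.0711) and with only the 2 groups compared (0.05004).

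**Figure D5:**
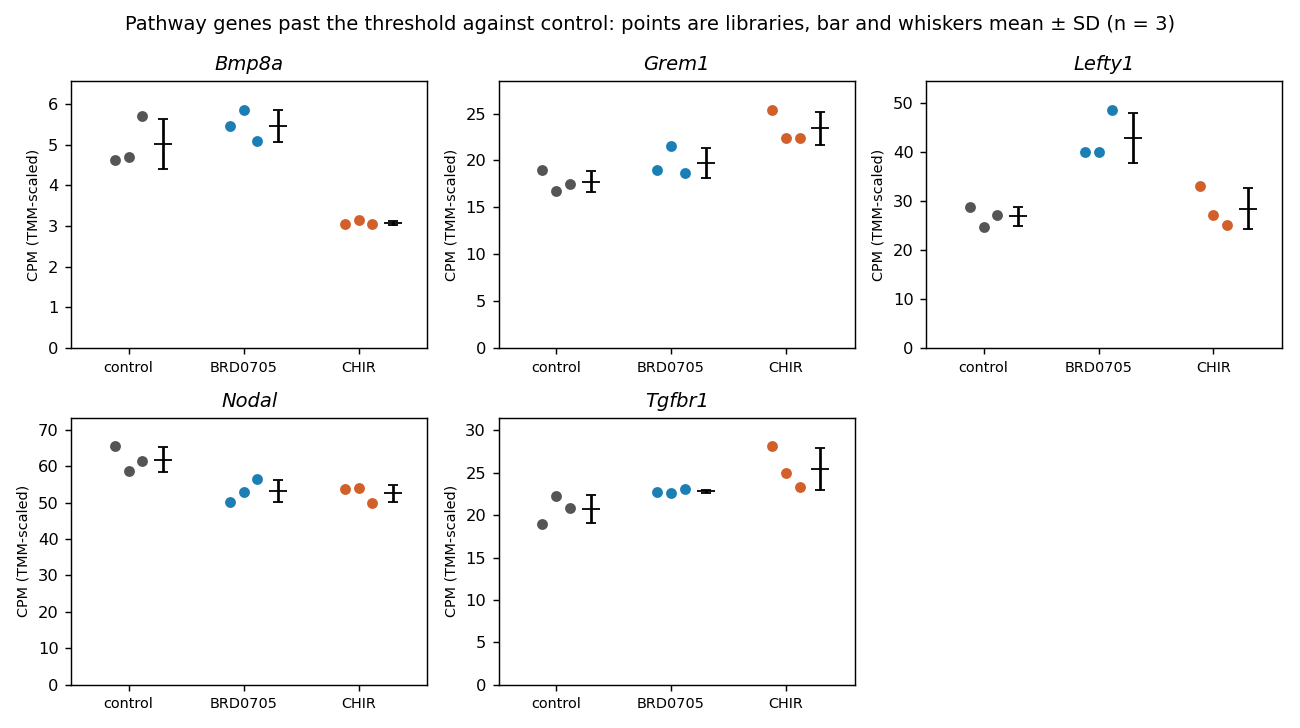
CPM of the 5 pathway genes outside the 8 members that passed against control, by library (points), with the mean and SD of each group (bar and whiskers, n = 3), on axes that start at 0. The BRD0705 libraries of Lefty1 lie above all others, and the CHIR libraries of Bmp8a lie below all others.

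The genes whose log2 CPM followed each Id gene most closely over the 9 libraries were different for each. They were the 3 highest of 12407 genes compared, given as a description of these libraries, which share treatment and feeder content. For Id2 they were Chmp4c (Pearson r 0.937), Slc35b2 (0.936) and Dennd4b (0.925), none of which passed against control. For Id1 they were Taf9 (0.966), Flt1 (0.955) and Tnfaip3 (0.940). For Id3 they were Atp8b2 (0.964), Ccar2 (0.954) and Sgsm3 (0.947). None of the BMP pathway genes on the lists was among these 9.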

How the data were processed

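For 9 libraries the authors deposited 1 table of whole-number counts by gene symbol, and a normalized table whose signal is those counts divided by 1 factor per library. Per the submitters' processing notes, RSEM, DESeq2 and mm10 were used, with no role or order given; whether the counts are rounded RSEM estimates, which annotation was used, and whether strand was, is not given in the sources used here. The labels name both polyA RNA and a ribosomal RNA depletion kit, which was not resolved.

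edgeR 4.0.16 (R 4.3.3) was used on the counts: TMM scaling, filterByExpr with a minimum count of 10, and quasi-likelihood F tests from 1 model of 3 group means over the 9 libraries (6 residual degrees of freedom). Tests were 2-sided, and p-values were adjusted by Benjamini-Hochberg over all 15366 tested genes with a threshold of 0.05. Standard errors and 95% intervals were derived from each log2 fold change and its F value. Log2 CPM used a prior count of 2. The feeder score is the mean log2 CPM of 12 fibroblast markers. Transcript length and GC content came from GENCODE vM39 (GRCm39), with a value for 98.0% of tested genes, and positions and promoters from RefSeq on GRCm38.p6.

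The 8 members and the lists were chosen with earlier results of these data known. An item of the lists is not reported here. Named genes are the members, each listed gene past the threshold in any contrast, otherwise up to 2 of the highest mean CPM per list, and for each Id gene the 3 genes of highest Pearson r among those at 1 log2 CPM or more. Ctnnb1 was named to check the genotype, and Id4 was added after its values were seen. Alternatives were the replicate block, DESeq2 1.42.0, limma 3.58.1 (voom, and the normalized table as log2(value + 1) and log2(value + 0.1)), other scaling and filters, only the groups compared, the feeder score as a covariate, a GC and length correction (splines with 5 degrees of freedom each), and leaving out each library. The edgeR, DESeq2 and voom fits were tested on simulated data; the other alternatives were not. At this depth 1 count is worth 0.0475 to 0.0569 CPM.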

Additional observations from a re-analysis of the deposited data

How the results depend on the processing

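With BRD0705 against control, the number of genes past the threshold was 188, and 484 with DESeq2, 609 with no low-count filter, 0 with the feeder score as a covariate (edgeR; 1390 at an unadjusted p under 0.05), 114 with the GC and length correction and 115 with that correction and the replicate block. Leaving out 1 library gave 21 to 305 genes: 292, 37 and 51 without control replicates 1, 2 and 3, 21, 55 and 305 without BRD0705 replicates 1, 2 and 3, and 98 without CHIR replicate 2. Of the 8 members, 1 passed with no low-count filter, Id2, and 0 when any library was left out. Of the wider pathway genes 1 passed, 4 with DESeq2 or no filter, 2 with DESeq2-type size factors, library size only, a mean CPM of at least 1 or the normalized table at either pseudocount, and 0 with the feeder covariate (8 at an unadjusted p under 0.05). It was 1 to 3 with 1 library left out: 3 without control replicate 1, and 2 without control replicate 3 or CHIR replicate 1.

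With CHIR against control, 968 genes passed, 255 with the feeder covariate and 514 to 1070 with 1 library left out (523 and 561 without control replicates 2 and 3, 633 and 514 without CHIR replicates 1 and 2). Of the members 1 passed, and 2 with library size only, no filter, the normalized table as log2(value + 0.1) or the GC and length correction. It was 0 with the feeder covariate (3 at an unadjusted p under 0.05), and 0 to 2 with 1 library left out: 0 without control replicate 1, CHIR replicate 1 or CHIR replicate 2, and 2 without BRD0705 replicate 3 or CHIR replicate 3. Of the wider pathway genes 4 passed, 7 with no filter, 1 with the feeder covariate and 1 to 6 with 1 library left out (1 without control replicate 3, 2 without CHIR replicate 1 or 2). With BRD0705 against CHIR, 1194 genes passed, and 616 to 1313 with 1 library left out (616 and 756 without BRD0705 replicates 1 and 2, 675 and 617 without CHIR replicates 1 and 2). The members' count stayed at 1 in all alternatives, and the wider count of 5 became 3 with the GC and length correction, with or without the replicate block, and 2 to 5 with 1 library left out: 2 without BRD0705 replicate 1 or CHIR replicate 1, and 3 without BRD0705 replicate 3 or CHIR replicates 2 or 3. The causes were not tested. The feeder score did not overlap between BRD0705 and control, so a covariate fit cannot tell it apart from that treatment.

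The replicate block gave 222, 973 and 1177 genes in the 3 contrasts, 0, 1 and 1 members, and 1, 5 and 5 wider genes. Same-numbered libraries did not deviate together (mean correlation -0.00119 over 9 pairs, range -0.0897 to 0.0802), so no pairing by number was seen. These values do not show whether same-numbered libraries were made together. No called log2 fold change of a member or pathway gene changed sign in any alternative. Depth limits the members Smad6 and Id2, at 67 to 224 counts per library, and the ligand gene Bmp8a, at 56 to 116.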
